A study of Mus musculus with 2 samples.

Results

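Voltage-gated channel genes were described in mouse forebrain at embryonic day 13.5, as a set of 49 genes taken by symbol from 43346 mouse genes in each gene table. All 49 were found. The rule that lists them uses no measured value, but the list was chosen with earlier results of these data known. They comprised 6 pore genes and 3 beta subunit genes of sodium channels, 8 pore genes, 3 alpha2delta genes and 4 beta subunit genes of calcium channels, and 25 genes of potassium and HCN channels. Total RNA longer than 200 bases was sequenced, with 10 ng of RNA and added spike-in RNA per library. The tissue came from B6NCrl embryos of both sexes, pooled, without any treatment or engineered allele in the labels. There were 2 libraries in 1 group, called biological replicates in the labels but with a single donor code, so their spread may be technical. With 1 group no test between conditions exists: no p-value is printed, and each error is the SD over both libraries (n = 2).

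A voltage-gated channel opens a pore for sodium, calcium or potassium when the membrane potential changes. Sodium channels carry the rising phase of the action potential, calcium channels couple depolarisation to release and to gene regulation, potassium channels repolarise the cell, and HCN channels open on hyperpolarisation. Auxiliary subunits do not form the pore but set its trafficking and gating.

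Depth was 35378462 estimated counts in replicate 1 and 36793284 in replicate 2. All 6 neuronal markers and all 6 neural progenitor markers passed 1 TPM (a share of all transcripts in the library, corrected for transcript length) in both libraries, and each list summed to between 2248 and 2383 TPM per library. Markers of endothelium (75.4 and 80.6 TPM summed, replicate 1 and replicate 2), mural and meningeal cells (125 and 136 TPM) and microglia (33.7 and 35.1 TPM) were all detected, 16 of 16. Red blood cell markers, 5 of 5 detected, summed to 11848 and 11140 TPM. Of 6 muscle markers 1 passed 1 TPM in both libraries and Myog was at 0, but the list summed to 40.3 TPM in replicate 1 and 2.74 in replicate 2. The 4 choroid plexus markers summed to 450 and 233 TPM, and the 4 eye markers found summed to 1.14 and 2.47 TPM, with Crx at 0. In this bulk tissue, fewer cells of a type and less RNA per cell cannot be told apart.

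A pair of alternative coding exons of the pore gene Cacna1c is shown first, as an example of transcripts that differ in what they code. Other pore genes also have transcripts that differ in coding bases, among them Scn8a, Kcnh1 and Cacna1g, taken up below. Capitals mark the bases that differ from the partner exon, and the sequences are from GENCODE M21 transcripts placed on mm10, written 5′ to 3′ on the coding strand. The exons of Cacna1c, a high-voltage calcium pore gene, lie at chr6:118742265-118742368 and chr6:118741871-118741974 on the - strand and differ at 32 of 104 bases.

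Cacna1c upstream exon: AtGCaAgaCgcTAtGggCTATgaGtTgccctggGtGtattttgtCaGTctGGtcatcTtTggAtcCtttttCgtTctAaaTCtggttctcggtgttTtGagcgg
Cacna1c downstream exon: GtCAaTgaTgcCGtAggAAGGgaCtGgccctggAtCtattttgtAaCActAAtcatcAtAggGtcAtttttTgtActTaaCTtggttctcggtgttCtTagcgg

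In both libraries transcripts of Cacna1c with the upstream exon held somewhat more than those with the downstream exon. Their level was 0.94 TPM in replicate 1 and 0.99 in replicate 2 with the upstream exon, against 0.76 and 0.77 TPM with the downstream exon. By TPM, the upstream share was 55.3% and 56.2%, a change of under 1 percentage point between the libraries. The estimated counts behind these levels were 272 and 311 for the upstream form, against 121 and 135 for the downstream form. By the deposited posterior mean TPM, an average over the likely ways to divide the reads, the upstream share was 54.7% and 57.8%. These are levels of whole transcripts, not of reads in the exons. The leading transcripts of the forms, Cacna1c-207 and Cacna1c-216, have 7764 unshared bases, so the split does not rest on the exons alone.

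Turning to gene levels, the channel genes were mostly present at low to middle levels, with a few auxiliary and pore genes far above the rest. Of the 49 genes, 38 reached 1 TPM in both libraries, 7 stayed below 1 TPM in both and 4 lay on both sides of it. Among all 21473 protein-coding genes, 59% reached 1 TPM in both libraries. Of 27 voltage-gated channel genes outside the set only 7 did so, so the share detected depends on which channel genes are listed. At 10 TPM or more in both libraries were 7 channel genes, against 38.9% of protein-coding genes. The median level was 3.79 TPM for the channel genes and 3.92 TPM for all protein-coding genes. Among genes that reached 1 TPM in both libraries the medians were 4.39 TPM and 20.1 TPM. The plot of levels by family shows every gene in both libraries.

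**Figure D1:**
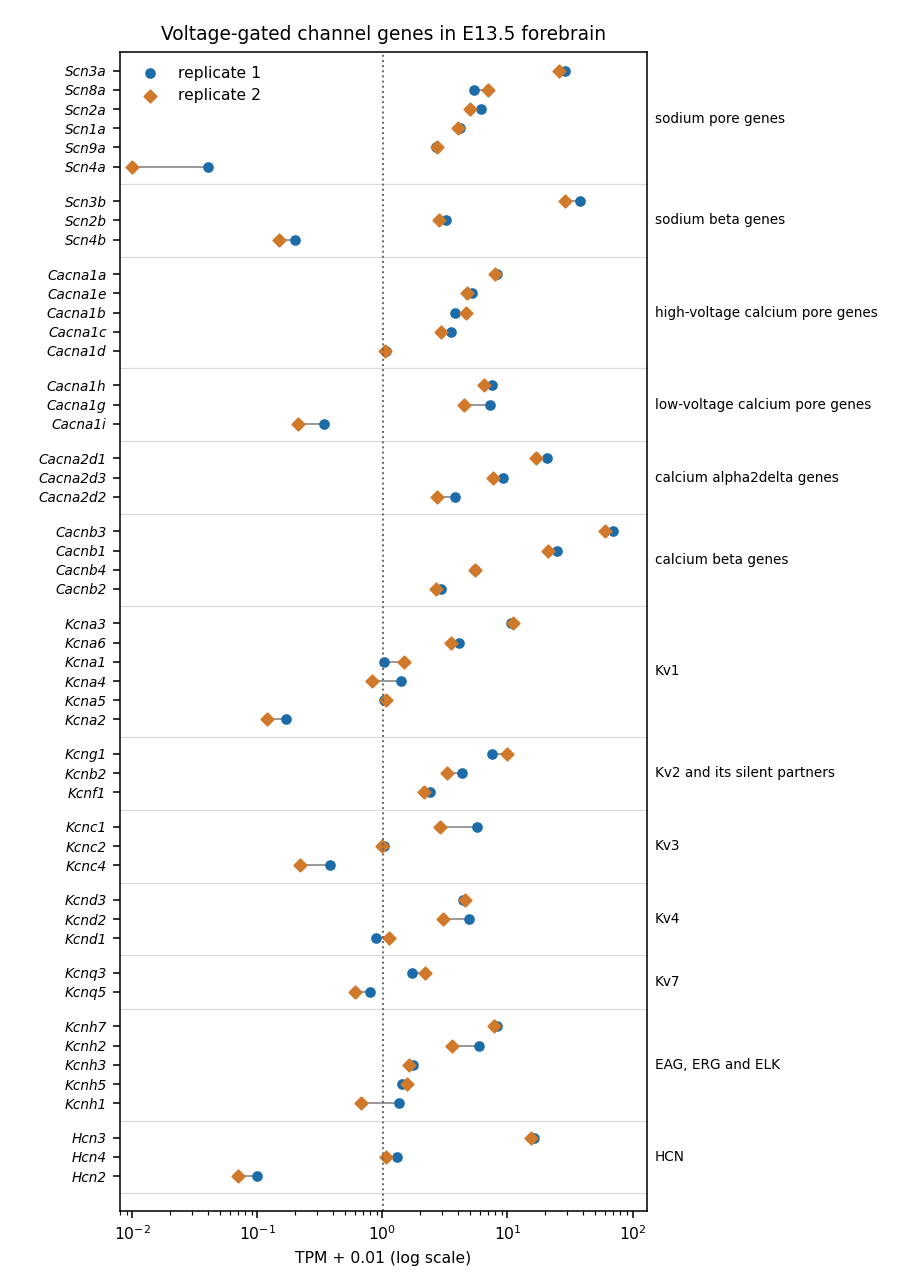
TPM + 0.01 of each of the 49 channel genes on a log axis, grouped by family and ordered by mean, with circles for replicate 1, diamonds for replicate 2 and a dotted line at 1 TPM. Cacnb3 stands highest at 69.7 and 60.7 TPM and Scn4a lowest at 0.03 and 0 TPM, while 38 genes lie right of the line in both libraries.

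The 5 highest genes held 51.1% of the summed level of all 49. Cacnb3, which codes for a cytoplasmic beta subunit of calcium channels (chr15:98630840-98644529), had 69.7 TPM in replicate 1 and 60.7 in replicate 2. Scn3b, a sodium channel beta subunit gene (chr9:40269217-40291618), followed at 38.1 and 29 TPM, and Scn3a, the pore gene known as the embryonic sodium channel of the brain (chr2:65457118-65567627), at 29 and 25.6 TPM. Cacnb1, another calcium beta subunit gene (chr11:98001508-98023034), had 25 and 21.2 TPM. Cacna2d1, which codes for the extracellular alpha2delta subunit (chr5:15934691-16374511), had 20.9 and 16.8 TPM. The order of these genes was the same in both libraries, and only the ranges of Scn3b and Scn3a overlapped. Below them came Hcn3, an HCN pore gene, with 16.4 and 15.5 TPM, and Kcna3, a potassium channel of the Kv1 family, with 10.7 and 11 TPM. The ranges of Hcn3 and Kcna3 overlapped neither each other nor those of the genes above them.

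Among the sodium pore genes Scn3a alone held 59.6% of the family's level, which summed to 45.9 ± 2.09 TPM. Scn8a, the channel of mature axon initial segments, had 5.35 TPM in replicate 1 and 7.04 in replicate 2, Scn2a, a channel of young axons, had 6.15 and 5 TPM, and Scn1a, a channel of inhibitory neurons linked to epilepsy, had 4.13 and 4.03 TPM. Scn9a, best known from sensory neurons, had 2.65 and 2.71 TPM. The ranges of Scn8a and Scn2a overlapped, so these genes could not be ordered by gene TPM. Scn1a lay below both of them and Scn9a below Scn1a in each library. Scn4a, the skeletal muscle sodium channel, had 5 counts in replicate 1 and 0 in replicate 2, where 0 allows up to 0.036 TPM (3 counts, counting error only). The deposited posterior mean in replicate 2 was 0.12 TPM, above this limit. Of the muscle markers, Actc1 had 32.4 and 2.22 TPM and Tnnt2 7.76 and 0.3 TPM, while the other 4 stayed at 0.14 TPM or less in both libraries, and their part in the Scn4a reads was not tested. The beta subunit genes spread widely, with Scn2b at 3.19 and 2.82 TPM and Scn4b, a subunit linked to resurgent current in adult neurons, at 0.19 and 0.14 TPM, both far under Scn3b.

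The calcium pore genes lay between 1.05 TPM and 8.05 TPM on average, apart from Cacna1i at 0.33 TPM in replicate 1 and 0.2 in replicate 2. Cacna1a, the P/Q-type pore gene of presynaptic terminals, had 8.22 and 7.88 TPM. Cacna1e (R-type) had 5.21 and 4.75 TPM, Cacna1b (N-type) 3.78 and 4.68 TPM, and the L-type genes Cacna1c and Cacna1d had 3.5 and 2.95 TPM and 1.06 and 1.04 TPM. By gene TPM, Cacna1d was the lowest of the high-voltage genes in both libraries. Of the low-voltage, T-type genes, Cacna1h had 7.51 and 6.45 TPM and Cacna1g 7.18 and 4.47 TPM. No calcium pore gene reached 10 TPM in both libraries.

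The calcium channel beta subunit genes summed to 96.6 ± 9.22 TPM, 29.3% of the level of all 49 genes. Cacnb4 had 5.51 TPM in replicate 1 and 5.44 in replicate 2, and Cacnb2 2.95 and 2.69 TPM. All 4 beta genes and all 3 alpha2delta genes reached 1 TPM in both libraries. Of the alpha2delta genes, Cacna2d3 had 9.27 and 7.71 TPM and Cacna2d2 3.77 and 2.71 TPM, both under Cacna2d1. The 10 auxiliary genes, sodium beta subunits included, summed to 179 and 149 TPM, against 173 and 158 TPM for the 39 pore genes, so auxiliary genes held 49.8% of the total.

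The 25 potassium and HCN genes held 25.8% of the total, and each family was led by 1 or 2 genes. Of the Kv1 genes, which mostly form low-threshold channels, Kcna6 had 4.07 TPM in replicate 1 and 3.52 in replicate 2 after Kcna3. Kcna1 had 1.02 and 1.49 TPM, Kcna4 1.39 and 0.82 TPM and Kcna5 1.02 and 1.06 TPM. Kcna2, a major axonal channel of adult brain, was at 0.16 and 0.11 TPM, far under the other 5 Kv1 genes. Kcng1 and Kcnf1, whose proteins form no channel alone but join Kv2 pores, had 7.54 and 9.83 TPM and 2.39 and 2.16 TPM. The Kv2 pore gene Kcnb2 had 4.3 and 3.29 TPM, so the silent partner Kcng1 exceeded it in both libraries.

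Kv3 channels serve fast spiking and Kv4 channels the transient A-type current. In Kv3, Kcnc1 had 5.72 TPM in replicate 1 and 2.87 in replicate 2, Kcnc2 had 1.02 and 0.98 TPM, and Kcnc4 0.37 and 0.21 TPM. In Kv4, Kcnd3 had 4.41 and 4.58 TPM, Kcnd2 4.93 and 3.05 TPM and Kcnd1 0.88 and 1.12 TPM. Kcnc1 and the leading Kv4 genes had overlapping ranges. The Kv7 genes of the M-current, Kcnq3 and Kcnq5, were low at 1.72 and 2.19 TPM and at 0.79 and 0.59 TPM.

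In the EAG, ERG and ELK group the ERG genes led. Kcnh7 had 8.17 TPM in replicate 1 and 7.75 in replicate 2, and Kcnh2, the ERG gene also known from heart repolarisation, 5.9 and 3.6 TPM. Both exceeded every other gene of the group in each library. The ELK gene Kcnh3 had 1.74 and 1.63 TPM, and the EAG genes Kcnh5 and Kcnh1 had 1.42 and 1.57 TPM and 1.35 and 0.67 TPM. Of the HCN genes, Hcn3 held 92.8% of the family's level. The pacemaker gene Hcn4 was just above 1 TPM at 1.29 and 1.05 TPM, and Hcn2 was at 0.09 and 0.06 TPM on 6 and 4 counts.

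Part of these gene levels came from short or non-coding transcripts, and the share differed widely between genes. A transcript was called full-length here if its coding sequence reached 80% of the longest one of its gene, a definition added after the data were seen. The annotated class was not used. Thus Kcna6-201, annotated for nonsense-mediated decay (an RNA breakdown pathway), counted as full-length, at 2.12 TPM in replicate 1 and 0 in replicate 2. Over the 38 genes detected in both libraries, full-length transcripts held a median of 81.9% of gene TPM. In 15 of them the share was over 95%, as in Cacnb3, Cacna2d1 and Kcna3, and in 9 it was under 50%. The annotation alone can fix this share at 100%. This holds for the 13 of the 49 genes with 1 deposited transcript, Kcna3 among them. It also holds for Cacnb3 and Cacna2d1, whose transcripts all met the definition. Such shares, which also enter the median, do not measure transcript use. Full-length transcripts made up 12.7% of the TPM of Cacna1a but 52.9% of its estimated counts, since a short transcript gives a high TPM on few reads. The full-length level of Cacna1a was 1.01 TPM in replicate 1 and 1.03 in replicate 2, which moved it to rank 37 of 49, against rank 10 by gene TPM. Cacna1a then lay just under Cacna1d, which had full-length levels of 1.07 and 1.04 TPM, as the lowest high-voltage gene in both libraries. Cacnb2 kept 7.45% of its TPM, with full-length levels of 0.32 and 0.1 TPM, and its leading transcript was one with a retained intron.

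Scn3a kept 61.6% of its gene TPM, with full-length levels of 18.7 TPM in replicate 1 and 14.9 in replicate 2. A transcript model of only 365 bases, Scn3a-203, accounted for 10.1 and 10.4 TPM. By full-length level Scn3a still had the highest value of all pore genes, and Cacnb3 and Scn3b were the highest auxiliary genes. The order below these changed, since Scn3a, with a mean of 16.8 TPM, came after Cacnb1 (19.9 TPM) and Cacna2d1 (18.8 TPM), and Hcn3 (9.18 TPM) after Kcna3 (10.9 TPM). Hcn3 kept 57.6%, at 9.61 and 8.76 TPM, with most of the rest in retained-intron models. Scn1a kept 41.2% at 1.73 and 1.63 TPM, and Kcnh7 26.4% at 1.96 and 2.24 TPM. Scn8a kept 45.1% at 2.74 and 2.85 TPM, below Scn2a in both libraries, which kept 81.7% at 5.11 and 4 TPM. Auxiliary genes held 58.2% of the summed full-length level.

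**Figure D2:**
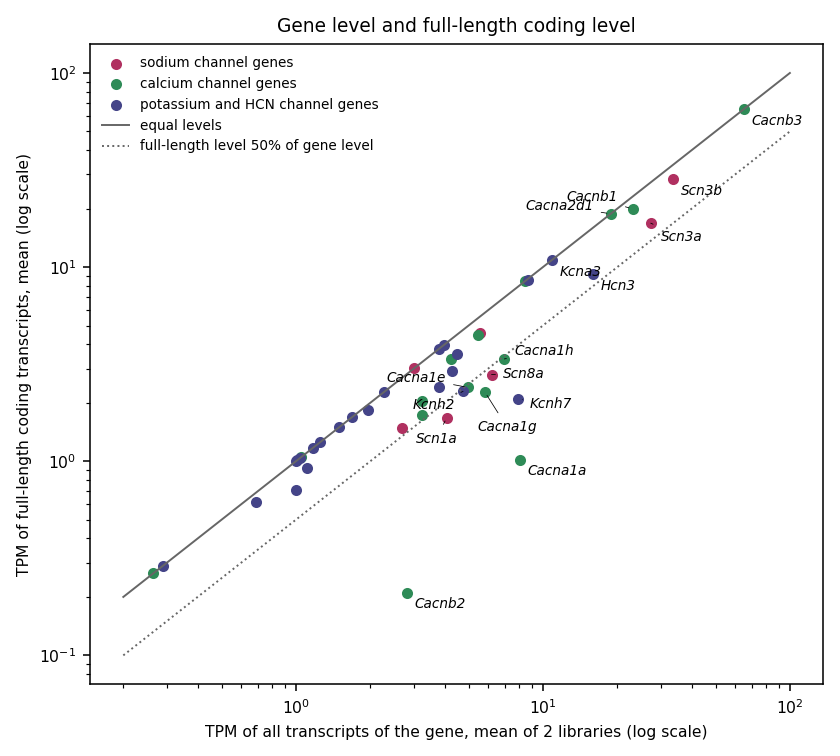
Mean TPM of full-length coding transcripts against mean TPM of the whole gene, both on log axes, for the 45 channel genes above 0.2 TPM, with lines at equal levels and at 50%. Cacnb3, Cacna2d1 and Kcna3 lie on the line of equality, while Cacna1a (12.7%), Cacnb2 (7.45%) and Kcnh7 (26.4%) fall far below the 50% line. For Cacnb3, Cacna2d1 and Kcna3 the annotation fixes this position, since all their transcripts met the definition of full-length.

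Contrasts within each library were taken as differences of log2(TPM + 1), with the median gene standing for a family. Scn3a minus Scn1a was 2.55 in replicate 1 and 2.40 in replicate 2, on average 2.48 ± 0.10, and Scn3b minus Scn4b was 4.88 ± 0.23. Cacnb3 minus Cacnb4 was 3.35 ± 0.13. Each of these differences was more than 10 times its SD, but the spread of the 2 libraries may be technical, and the pairs were chosen with earlier results known. The Kv4 median exceeded the Kv3 median by 1.23 ± 0.27, but the difference was 0.68 by the mean of log2 values and 0.55 with only genes at 1 TPM or more on average. The pore genes lay below the auxiliary genes by median, at -0.91 ± 0.064.

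By contrast, Scn2a minus Scn8a was 0.17 in replicate 1 and -0.42 in replicate 2, which gave -0.13 ± 0.42, within the spread of the libraries. With full-length transcripts only, it was 0.54. High-voltage minus low-voltage calcium pore genes, by median, was -0.78 and 0.05, on average -0.36 ± 0.59, also within the spread. The sums went the other way, with 21.8 and 21.3 TPM for the 5 high-voltage genes against 15 and 11.1 TPM for the 3 low-voltage genes. The mean of log2 values gave 0.23, so neither class could be placed above the other.

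The libraries were next compared over the 40 channel genes with a mean estimated count of at least 100. By TPM, 31 of the 40 were higher in replicate 1, but so were 76.1% of 11966 protein-coding genes with as many counts. Their median log2 ratio, replicate 1 over replicate 2, was 0.16, against 0.11 for all these genes. With counts scaled by TMM (trimmed mean of M values), 22 of 40 were higher in replicate 1, against 47.7% of all, and the medians were 0.06 and -0.01. The channel genes as a set thus differed little from the background in this respect.

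Of the 40 genes 1, the EAG gene Kcnh1, differed by 2-fold or more by TPM, against 0.501% of protein-coding genes in either direction and 0.46% higher in replicate 1. It had 212 counts in replicate 1 and 116 in replicate 2, a 2.01-fold ratio of TPM and a 1.83-fold ratio of TMM-scaled counts. At 1.5-fold or more there were 6 genes, all higher in replicate 1, namely Cacna1g, Kcna4, Kcnc1, Kcnd2, Kcnh1 and Kcnh2. The background share at 1.5-fold was 2.67% in either direction and 2.26% higher in replicate 1. For Kcnc1 the ratio was 1.99 by TPM but 1.24 by TMM-scaled counts, and for Kcnh2 1.64 and 1.10. These ratios moved with short non-coding transcripts: Kcnc1-202, of 531 bases, had 2.49 TPM in replicate 1 and 0.27 in replicate 2, and Kcnh2-204, of 741 bases, 1.95 and 0.43 TPM. The full-length level of Kcnh2 was 2.25 and 2.33 TPM, nearly equal.

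By TMM-scaled counts 0 of the 40 genes differed by 2-fold or more, against a background of 0.393%, and 2 differed by 1.5-fold or more, against 1.81% (1.2% higher in replicate 1 and 0.602% lower). Kcnh1 was higher in replicate 1, and the Kv1 gene Kcna1, with 201 counts in replicate 1 and 320 in replicate 2, was at 0.63-fold. Kcnd2, with 554 and 373 counts, had a ratio of 1.49. The muscle markers Actc1 and Tnnt2 and all 4 choroid plexus markers were also higher in replicate 1, and their part in these differences was not tested. The deposited TPM intervals of the libraries, whose level is not stated, did not overlap for 12 of the 49 genes, among them Cacnb3, Scn3b, Cacnb1 and Cacna2d1.

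**Figure D3:**
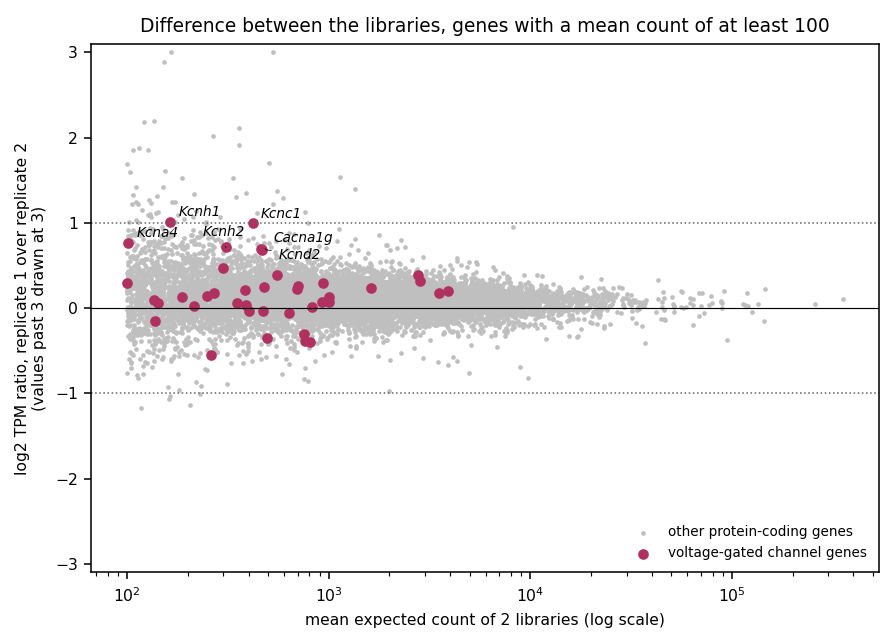
Log2 ratio of TPM, replicate 1 over replicate 2, against mean estimated count on a log axis, for 40 channel genes (red) and other protein-coding genes with a mean count of at least 100 (grey), with dotted lines at 2-fold. Genes past 1.5-fold are named, and Kcnh1 at 2.01-fold is the only channel gene past a dotted line.

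Transcript shares differed between the libraries in some genes, and how much depended on the deposited estimate used, TPM or posterior mean TPM (an average over the likely ways to divide the reads). The tables held 232 transcripts of the 49 genes, 164 of them above 0 in at least 1 library. Of the 36 genes with several transcripts, 15 had a leading transcript that held 50% or more of gene TPM in both libraries. For 17 genes the 2 leading full-length transcripts could be compared base by base. By TPM, the share of the first transcript moved by 30 percentage points or more between libraries in 6 of these, and all 6 pairs had between 15 and 245 unshared bases. By posterior mean TPM only 3 of them, Scn8a, Cacnb4 and Kcnh1, moved as much. The limit of 245 was taken from these 6 pairs, so no pair above it could have moved by 30 points by TPM. The 10 pairs with more unshared bases than 245 moved by at most 6.67 points by TPM and 5.24 points by posterior mean TPM. The remaining one, of the N-type pore gene Cacna1b, moved by 12.8 and 15.7 points. This is a description of the 17 pairs, whose genes share libraries, and does not extend to short transcripts: Kcnc1-202 held 43.5% of gene TPM in replicate 1 and 9.41% in replicate 2, and Cacna1b-208, of 523 bases, held 0 and 34.9%.

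**Figure D4:**
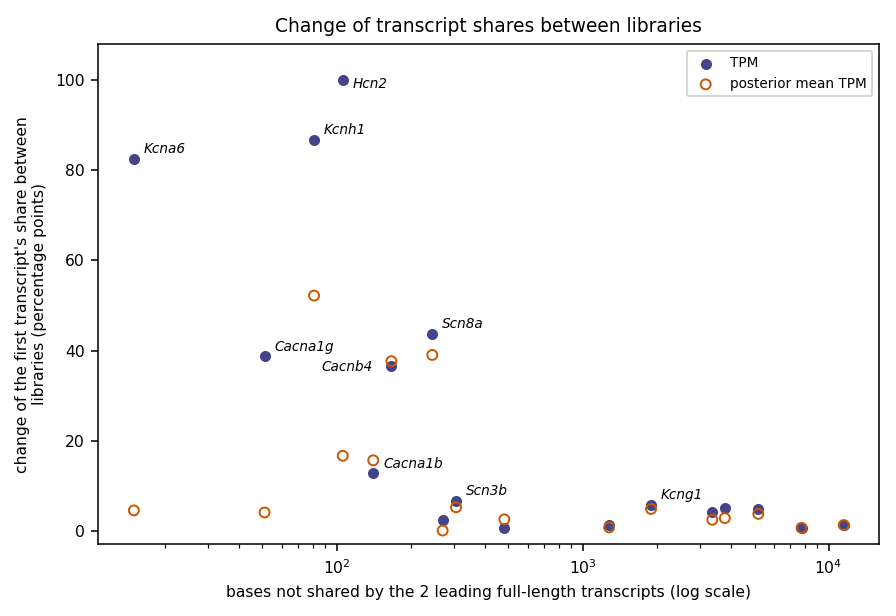
Change of the first transcript's share between the libraries, in percentage points, by TPM (filled) and posterior mean TPM (open), against the number of bases that the 2 leading full-length transcripts do not share (log axis), 1 point per channel gene. The 6 genes that moved by 30 points or more by TPM, Kcna6, Cacna1g, Kcnh1, Hcn2, Cacnb4 and Scn8a, lie at 245 unshared bases or fewer, and only Kcnh1, Cacnb4 and Scn8a have an open point above 30.

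Coding inserts set apart the transcripts of Kcnh1 and Cacna1g, and they are shown because these bases are all that the paired transcripts do not share. Kcnh1-201 has 81 coding bases, chr1:192277091-192277171 on the + strand of mm10, that Kcnh1-202 lacks. Cacna1g-208 has 51, chr11:94459827-94459877 on the - strand, that Cacna1g-205 lacks. Capitals mark the insert, a word used here only for bases that the partner model lacks, and 12 bases of the transcript flank it on each side. What the protein loses without these bases was not tested, since full-length was judged by coding length alone.

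Kcnh1-201: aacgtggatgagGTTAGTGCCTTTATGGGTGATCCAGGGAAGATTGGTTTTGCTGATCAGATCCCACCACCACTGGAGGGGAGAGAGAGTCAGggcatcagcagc
Cacna1g-208: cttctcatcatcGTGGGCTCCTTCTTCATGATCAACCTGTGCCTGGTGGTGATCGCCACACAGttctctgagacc

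By TPM, Kcnh1 without its insert had 1.17 TPM in replicate 1 and 0 in replicate 2, and with the insert 0.18 and 0.67 TPM. The form without the insert thus held 86.7% of the level in replicate 1 and was listed at 0 in replicate 2, and by posterior mean TPM it held 76.8% and 24.6%. Cacnb4-202 held 84.5% and 47.9% of its pair by TPM and 84.2% and 46.6% by posterior mean TPM. Scn8a-201 held 41.2% and 84.9% by TPM and 48.2% and 87.2% by posterior mean TPM. Scn8a-201 and its partner Scn8a-205 each have 92 coding bases that the other lacks. In each of these 3 pairs the deposited intervals of 1 of the forms did not overlap between libraries. The moves of Cacna1g, Kcna6 and Hcn2 appeared by TPM alone, and the intervals of both forms overlapped between libraries in all 3. In Cacna1g the form without the 51 bases held 47.8% and 86.5% of the pair by TPM, but 60.4% and 64.5% by posterior mean TPM. Kcna6-204, which differs from its partner Kcna6-201 by only 12 and 3 noncoding bases, held 17.5% and 100% by TPM, but 50.9% and 46.3% by posterior mean TPM. Hcn2-202 held 100% and 0% by TPM, on 6 and 4 counts for the gene, but 66.7% and 50% by posterior mean TPM. By comparison Scn3a-202 held 64.3% and 63.0% of its pair by TPM, which differs by 136 and 1146 bases.

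The set held 8 pairs of genes lying near each other, with gaps between 8.32 kb and 323 kb. Their mean levels differed between 1.21-fold and 80.4-fold. No other neighbouring genes were compared, and genes outside the set may lie between the paired genes. Kcna3 and Kcna2 lie 63.1 kb apart on chromosome 3, and differed most, with Kcna2 at only 12 counts in replicate 1 and 9 in replicate 2. Scn2b and Scn4b lie 8.32 kb apart on chromosome 9 and differed 18.2-fold. Scn3a and Scn2a, 53.1 kb apart on chromosome 2, differed 4.90-fold, while Scn1a and Scn9a, 39.2 kb apart on the same chromosome, differed 1.52-fold. Cacna2d3 and Cacna1d, 318 kb apart, differed 8.09-fold, and Kcna2 and Kcnc4, 323 kb apart, 2.15-fold. Kcna1 and Kcna6 differed 3.02-fold, and Kcna5 and Kcna1 1.21-fold. Levels were not ordered by size: Spearman's rho with mean TPM was 0.118 for gene span and -0.174 for transcript length over the 49 genes, as a description. The exons of 14 genes overlap a gene on the opposite strand, most in Kcna6 (39.6% of exonic bases, with Gm26673), Hcn3 (17.1%, with Pklr) and Cacnb4 (16.0%, with A430018G15Rik). The sources used here do not state if reads were counted by strand, so reads in these parts cannot be told apart. Gm26673 and Pklr were at 0.22 TPM or less in both libraries, but A430018G15Rik had 2 TPM in replicate 1 and 0.88 in replicate 2, and Gca, which overlaps 4.57% of the exonic bases of Kcnh7, had 8.72 and 10.2 TPM.

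Among 27 other voltage-gated channel genes outside the set of 49, 7 reached 1 TPM in both libraries. Kcnh8, a gene of the ELK group, was at 3.98 TPM in replicate 1 and 3.15 in replicate 2, and Kcna7 and Kcna10 were at 0 in both. Of potassium channel partners, 11 of 13 found were detected, led by Kcnip1 (31.4 and 24.5 TPM) and Dpp6 (17.8 and 12.9 TPM), which both join Kv4 channels. Of 8 sodium channel partners 7 were detected, led by the ankyrin gene Ank2 (66.5 and 64.1 TPM) and the channel-binding factor Fgf13 (59.2 and 63 TPM). Calcium channel gamma and Stac genes were detected in 7 of 11 cases, with Cacng4 at 23.1 and 19 TPM and Cacng2 at 3.71 and 2.86 TPM. Potassium channels not gated by voltage alone reached 1 TPM in 14 of 26 cases, led by Kcnk10 (23.9 and 24.1 TPM) and Kcnn2 (9.01 and 14.1 TPM), and all 4 genes of the sodium leak complex did so, led by Fam155a at 7.9 and 7.43 TPM.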

How the data were processed

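Each library came with 1 gene table and 1 transcript table, which the authors built from alignments to the transcriptome (mm10, GENCODE M4), per the deposited metadata. Aligner, quantification tool and strand setting are not stated in the sources at hand. The expected counts were deposited as estimated counts per feature, in which the authors divided reads shared between features. The deposited TPM values are the authors' levels per length, relative to all rows, with a second column of posterior means, and the deposited FPKM values are their levels per length and library size. The authors' TPM intervals served only to ask if the libraries overlap.

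Each table had 69691 rows, of which 43346 were mouse genes. Symbols, transcript models and exon sequences came from GENCODE M21 on GRCm38, matched by identifier (42462 genes). Of the 232 transcripts of the 49 genes, 29 have another length in M21 and 1 is not in it, and these were left out of base-by-base comparisons. A level is the mean over both libraries, given with its SD. Detection meant 1 TPM in both libraries, and library ratios needed a mean count of 100. Counts were rounded to whole numbers for scaling only, by TMM in edgeR 4.0.16 and size factors in DESeq2 1.42.0 (R 4.3.3). Everything else ran in Python 3.11.15 with numpy 2.4.6, pandas 2.3.3 and matplotlib 3.10.9. The ratio and contrast steps were tested on simulated counts. The text names all 49 genes and the 2 highest of each other channel list, except that some items are not reported here. Transcripts were named after their values were seen. The 49 genes and all lists were chosen with earlier results of these data known. Alternatives were other pseudocounts, thresholds, scalings, filters and summaries, posterior mean TPM, FPKM, full-length transcripts and leaving out each library.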

Additional observations from a re-analysis of the deposited data

How the results depend on the processing

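No paired analysis was possible because there is 1 group. Leaving out 1 library gave 2.40 to 2.55 (log2) for Scn3a minus Scn1a, 4.72 to 5.04 for Scn3b minus Scn4b, 3.26 to 3.44 for Cacnb3 minus Cacnb4, 1.03 to 1.42 for Kv4 minus Kv3 and -0.95 to -0.86 for pore minus auxiliary genes. It reversed Scn2a minus Scn8a (-0.42 to 0.17) and high-voltage minus low-voltage calcium pore genes (-0.78 to 0.054). The count of genes at 1 TPM was then 39 to 41, at 10 TPM 7, and of genes with a leading transcript at 50% it was 34, against 28 with both libraries required. A pseudocount of 0.1 TPM gave 2.71 for Scn3a minus Scn1a, 6.98 for Scn3b minus Scn4b, 3.55 for Cacnb3 minus Cacnb4, 1.78 for Kv4 minus Kv3 and -1.08 for pore minus auxiliary genes. FPKM gave 2.36, 4.34 and -0.83 for Scn3a minus Scn1a, Scn3b minus Scn4b and pore minus auxiliary genes, and posterior mean TPM gave 3.20 for Cacnb3 minus Cacnb4. Full-length transcripts, an alternative chosen after seeing the data, gave 2.73 for Scn3a minus Scn1a, 0.54 for Scn2a minus Scn8a (reversed), 4.64 for Scn3b minus Scn4b, 3.59 for Cacnb3 minus Cacnb4 and -1.39 for pore minus auxiliary genes. The mean of log2 values gave 0.23 for the calcium pore classes (reversed), 0.68 for Kv4 minus Kv3 and -1.30 for pore minus auxiliary genes. With only genes at 1 TPM on average the last 2 were 0.55 and -1.01. At 2 times the threshold, 4 genes passed in place of 7 at 10 TPM. By TMM-scaled counts, by DESeq2 size factors and with no filter and a pseudocount, 0 genes differed 2-fold and 2 differed 1.5-fold, in place of 1 and 6. At 1.5-fold, the TMM and DESeq2 scalings each gave 1 gene higher and 1 lower in replicate 1. With the pseudocount it was 2 higher and 0 lower, so the equal counts do not stand for the same genes. The DESeq2 size factors were 1 and 1, and the TMM library sizes were nearly equal. These scalings thus left the counts nearly unscaled and were not separate checks. By posterior mean TPM, an alternative chosen after seeing the data, 3 transcript pairs moved by 30 points or more between libraries, in place of 6. The causes were not tested. Low counts limit Scn4a, Hcn2, Kcna2 and Scn4b, with 20 counts or fewer per library.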
